A study of Mus musculus with 16 samples.

Results

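The genes described here make, sense, move and store cholesterol. They are 31 of the 21640 genes in the table of raw counts from mouse thyroid, found by matching each gene identifier to its mouse symbol, and all 31 were present. By role they were 4 regulators of the transcription factor SREBP2, 8 enzymes from acetyl-CoA units to the isoprenoids, 12 enzymes from squalene to cholesterol, the sterol carrier Stard4, 2 LXR receptors, 3 genes that LXR switches on and the esterifying enzyme Soat1. Whole thyroids came from male wild-type C57Bl/6J mice that entered their diets at 8 weeks of age, and poly(A) RNA of each mouse was sequenced as 1 library. At 3 weeks and at 6 weeks of diet, 4 mice on chow (the control diet, CD) and 4 mice on high-fat food with sucrose water (HF+SD) were taken, 16 mice in all and no mouse in more than 1 group. The diets were compared within each time point, because the library names of the 2 time points begin with different numbers, and a difference in level between times cannot be told apart from a difference between those sets of libraries.

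Cells take cholesterol from lipoproteins or build it from acetyl-CoA through mevalonate, farnesyl diphosphate, squalene and lanosterol. When membrane sterol is low, Scap carries SREBP2 out of the endoplasmic reticulum to be cleaved, and the freed factor switches on the synthesis enzymes, Insig1 and its own gene. When sterol is high, the Insig proteins hold Scap back, while oxysterols bind the LXR receptors, which switch on the exporters Abca1 and Abcg1 and Mylip, a ubiquitin ligase that removes lipoprotein receptors from the cell surface. In the thyroid, follicular cells surround a store of thyroglobulin, and the tissue also holds blood vessels, C cells, resident macrophages and, at its edges, parathyroid, fat and muscle.

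Promoters are shown for Hmgcs1, Srebf2, Pmvk and Abca1, so that the letters SREBP2 is known to use can be seen beside the measurements. Hmgcs1 did not pass the test for a diet difference at either time. RefSeq promoters (GRCm38.p6, 250 bases before to 50 after the start site) were at hand for 26 of the 31 genes and were searched on both strands for the sterol response core TCACNCCAC, the NF-Y box CCAAT and the Sp1 box GGGCGG, which share no overlapping match in the sequences below. The core was found in 1 of 26, Hmgcs1, against 1.44% of the 27025 genes in the table. Only exact matches in this window were counted, so a site that departs from these letters or lies outside it was missed. CCAAT was found in 21 of 26 (80.8%, against 41.1% of all genes) and GGGCGG in 22 of 26 (84.6%, against 38.2%). Capitals mark the core and the NF-Y box in either orientation. In Hmgcs1 (chr13:119690101-119690400, plus strand), the enzyme that makes HMG-CoA, the core begins at position -137 from the start site, among 4 NF-Y boxes. Srebf2 itself (chr15:82147019-82147318, plus strand) has 1 NF-Y box and 5 Sp1 boxes. It also holds tcaccccat, which differs from the core only in its last base and was not counted. Pmvk is listed with an upstream start (chr3:89454291-89454590, plus strand, 1 NF-Y box) and a downstream start (chr3:89459321-89459620, plus strand, none of the 3 motifs). Abca1 (chr4:53159846-53160145, minus strand) has 2 Sp1 boxes and neither of the other motifs in this window. Insig1, whose promoter is not printed, has 1 NF-Y box, 3 Sp1 boxes and no core.
Hmgcs1: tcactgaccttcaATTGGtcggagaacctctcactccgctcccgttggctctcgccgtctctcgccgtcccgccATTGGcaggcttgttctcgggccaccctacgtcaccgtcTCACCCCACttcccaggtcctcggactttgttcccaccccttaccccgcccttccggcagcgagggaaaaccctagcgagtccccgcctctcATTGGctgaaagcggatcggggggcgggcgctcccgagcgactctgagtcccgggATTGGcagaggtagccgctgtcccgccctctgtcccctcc
Srebf2: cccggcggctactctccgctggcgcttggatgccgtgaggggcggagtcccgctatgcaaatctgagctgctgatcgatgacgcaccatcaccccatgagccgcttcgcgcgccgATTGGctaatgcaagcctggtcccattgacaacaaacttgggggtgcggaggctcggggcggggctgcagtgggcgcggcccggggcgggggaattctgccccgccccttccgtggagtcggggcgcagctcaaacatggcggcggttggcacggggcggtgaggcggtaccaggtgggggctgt
Pmvk upstream start: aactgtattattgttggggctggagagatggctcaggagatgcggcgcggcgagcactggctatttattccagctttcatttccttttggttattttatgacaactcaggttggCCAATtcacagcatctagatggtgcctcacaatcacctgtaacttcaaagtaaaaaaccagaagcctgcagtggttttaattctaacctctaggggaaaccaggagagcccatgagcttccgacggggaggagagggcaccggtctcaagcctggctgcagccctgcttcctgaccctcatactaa
Pmvk downstream start: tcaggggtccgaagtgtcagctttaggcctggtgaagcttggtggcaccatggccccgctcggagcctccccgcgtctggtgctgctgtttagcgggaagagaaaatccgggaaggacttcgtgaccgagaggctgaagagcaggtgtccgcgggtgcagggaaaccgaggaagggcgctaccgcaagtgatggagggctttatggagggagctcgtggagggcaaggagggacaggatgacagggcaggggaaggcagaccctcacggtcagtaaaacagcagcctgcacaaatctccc
Abca1: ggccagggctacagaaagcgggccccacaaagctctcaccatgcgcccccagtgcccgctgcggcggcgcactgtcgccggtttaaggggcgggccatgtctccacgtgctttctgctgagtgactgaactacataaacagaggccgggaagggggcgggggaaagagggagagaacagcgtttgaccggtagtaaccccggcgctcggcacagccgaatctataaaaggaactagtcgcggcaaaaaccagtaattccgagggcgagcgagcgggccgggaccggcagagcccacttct

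Some libraries and cell types have to be known before the values. Library totals ran from 30025256 to 48508653 counts. All 14 thyrocyte markers were detected in every group, and on the HF+SD 7 of them rose at 6 weeks and 6 at 3 weeks, with none lower (adjusted p under 0.05, edgeR). Their summed level at 6 weeks was 102993 to 147026 CPM in HF+SD mice against 68834 to 103545 in CD mice, and at 3 weeks 285140 to 317373 against 260678 to 311799. At 6 weeks 20 skeletal muscle transcripts took 14.7%, 10.6% and 3.50% of the counts in CD mice M45, M48 and M43, against 0.0916% in CD mouse M22 and at most 0.407% in any HF+SD mouse, and 19 of the 20 were lower on the HF+SD (adjusted p under 0.05, edgeR). Their summed level was 789 to 204972 CPM (counts scaled to the library size with TMM factors) in the CD group and 1095 to 3888 in the HF+SD group, while at 3 weeks it was 17.1 to 78.8 and 33.9 to 65.1 CPM. All 7 endothelial markers were higher on the HF+SD at both times, with a summed level at 6 weeks of 1257 to 1394 CPM in HF+SD mice against 344 to 464 in CD mice. White adipocyte markers were lower (6 of 7 at 6 weeks, 5 of 7 at 3 weeks), as were 3 of the 4 brown adipocyte markers tested at 6 weeks, and 7 of 10 tested macrophage markers were higher at 6 weeks, with a summed level of 432 to 499 CPM in HF+SD mice against 243 to 434 in CD mice. Of 4 C cell markers 2 were lower at each time, and of 3 parathyroid markers none passed with edgeR at either time (3 at an unadjusted p under 0.05 at 6 weeks and 0 at 3 weeks, and 2 and 0 with DESeq2). No marker of these lists was at 0 in all mice of a group. At 3 weeks CD mouse M55 stood apart: it lay beyond the other 3 CD mice, by the 95% limit for 4 samples, in 951 of 17238 genes, against 118 to 173 genes for each of the other CD mice. In whole tissue, fewer cells of a type and less RNA per cell cannot be told apart.

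At 6 weeks 6 of the 31 genes passed the test (edgeR's quasi-likelihood test, adjusted p under 0.05 over all genes tested), 3 upward and 3 downward on the HF+SD, and at 3 weeks 3 passed, 1 higher and 2 lower. At 6 weeks Srebf2, Stard4 and Abca1 rose while Insig1, Pmvk and Hsd17b7 fell, and at 3 weeks Dhcr7 rose while Acat2 and Pmvk fell. Over all 18249 genes tested at 6 weeks 21.5% were called, 12.0% higher and 9.55% lower, and over all 17238 genes at 3 weeks 14.9%, 9.07% higher and 5.78% lower, so the counts of 6 and 3 among 31 lay close to or below the background. With the further requirement of an absolute log2 fold change above 1, which the study used, Pmvk and Hsd17b7 were left at 6 weeks (12.6% of all genes) and none at 3 weeks (4.66%, edgeR). The diets did not overlap in 5 of the 31 genes at 6 weeks, against 23.8% of all genes, and in 6 at 3 weeks, against 23.6%. An unadjusted p under 0.05 (edgeR) was reached by 8 of the 31 at 6 weeks, against 6612 of all 18249 genes. At 3 weeks it was reached by 11, against 5337 of all 17238. All 31 genes passed the filter on low counts at both times. Pmvk alone of the 31 was called at both times, against 1342 of all 17024 genes tested at both.

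**Figure D1:**
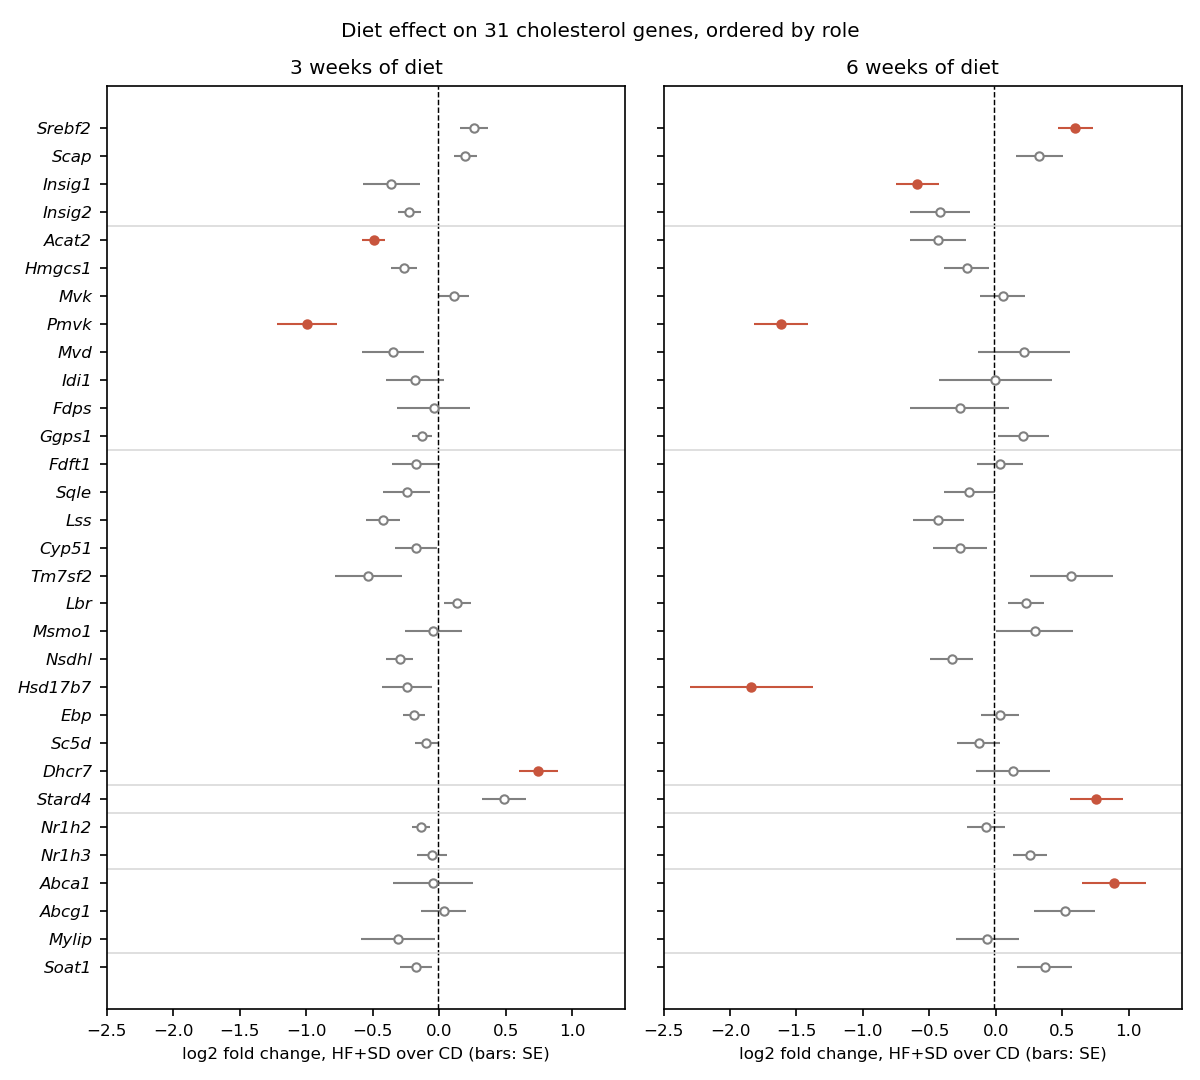
Log2 fold change of the HF+SD over the CD for each of the 31 genes (points) with its standard error (bars), at 3 weeks on the left and 6 weeks on the right, with roles divided by grey lines and the median of all tested genes dashed; filled points passed the test. Pmvk is the lowest point at 3 weeks (-0.99), and at 6 weeks Hsd17b7 (-1.84) and Pmvk (-1.62) are the lowest and Abca1 (0.89) the highest.

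Most of the 20 synthesis enzymes lay slightly below the control level at 3 weeks. At that time 17 of the 20 had a log2 fold change below 0, with a median of -0.18, against -0.01 over all genes tested, of which 51.1% were below 0. Of the 20, 3 passed the test, Acat2 and Pmvk lower and Dhcr7 higher. Without CD mouse M55 the median at 3 weeks was -0.13. Idi1 (0.083), Fdft1 (0.063), Msmo1 (0.24) and Fdps (1.7e-05) were then above 0, and no enzyme moved from above 0 to below it. At 6 weeks 11 of 20 were below 0, the median was -0.07 (-0.01 over all genes), and Pmvk and Hsd17b7 passed, both lower. Of the 31 genes 22 (71.0%) had the same sign at both times, against 64.3% of the 17024 genes tested at both, and 11 of the 20 enzymes were below 0 at both, against 32.7% of all genes. The 2 time points share no mice.

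Among the regulators, Srebf2 and Insig1 changed in opposite directions at 6 weeks. Srebf2 (ENSMUSG00000022463.9) encodes SREBP2, the factor that drives the pathway. In CD mice M22, M43, M45 and M48 at 6 weeks it had 31.7, 24.2, 30.2 and 31.5 CPM, and in HF+SD mice M5, M18, M34 and M35 it had 47.4, 39.1, 43.5 and 47.9. All HF+SD mice lay above all CD mice, 44.5 ± 4.08 against 29.4 ± 3.52 CPM (SD, n = 4 each). The log2 fold change was 0.60 (SE 0.13, edgeR adjusted p = 0.0138), and the exact permutation test (two-sided, log2 CPM) gave p = 0.0286, the smallest that 4 mice against 4 allow. The call held with each mouse left out in turn (log2 fold changes 0.48 to 0.66) and without both muscle-rich CD mice (0.68, adjusted p = 0.0403). Adjusted for the muscle score it was 0.59 (adjusted p = 0.0543). Scaled to 9 thyrocyte genes, a choice that shifted the all-gene median (-0.57 at 6 weeks, -0.18 at 3 weeks), it was 0.02 (adjusted p = 0.952).

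At 3 weeks Srebf2 had 83.6, 79.4, 109 and 84.5 CPM in CD mice M53, M54, M55 and M96, and 104, 104, 107 and 112 in HF+SD mice M7, M19y, M20y and M31. The CD mouse inside the HF+SD range was M55. The log2 fold change was 0.26 (SE 0.10, edgeR adjusted p = 0.116), and without M55 it was 0.37 (adjusted p = 0.00276). Scap, the escort of SREBP2, also turned on M55 at 3 weeks: it had 55.8 CPM and the other CD mice 46.8 to 47.9, against 53.1 to 61.4 on the HF+SD, with a log2 fold change of 0.20 (SE 0.08, edgeR adjusted p = 0.140) with M55 and 0.26 (adjusted p = 0.0248) without it. At 6 weeks Scap had a log2 fold change of 0.33 (SE 0.18, adjusted p = 0.219).

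Insig1 (ENSMUSG00000045294.12), a sterol-sensing brake that is itself an SREBP2 target, had 45.9, 68.5, 44.4 and 58.0 CPM at 6 weeks in CD mice M22, M43, M45 and M48, and 34.4, 33.5, 35.3 and 40.9 in HF+SD mice M5, M18, M34 and M35. The highest HF+SD mouse lay below the lowest CD mouse. Its log2 fold change was -0.59 (SE 0.16, edgeR adjusted p = 0.0299; exact permutation p = 0.0286). The call was kept in 3 of the 8 fits that left out 1 mouse (adjusted p-values 0.0153 to 0.0933) and lost without both muscle-rich CD mice (-0.66, adjusted p = 0.0595) and with the muscle covariate (-0.50, adjusted p = 0.149). At 3 weeks it had 50.0, 57.3, 56.9 and 49.6 CPM in CD mice M53, M54, M55 and M96 and 54.3, 24.7, 51.5 and 36.3 in HF+SD mice M7, M19y, M20y and M31. Here M7 and M20y lay within the CD range while M19y and M31 lay below it, and the log2 fold change was -0.36 (SE 0.21, adjusted p = 0.283). Insig2, the second brake, had log2 fold changes of -0.22 at 3 weeks (SE 0.09, adjusted p = 0.107) and -0.42 at 6 weeks (SE 0.22, adjusted p = 0.207). Its 6-week levels in M22, M43, M45 and M48, 43.7, 64.7, 97.3 and 67.5 CPM, were in the order of their muscle transcripts, and without M45 and M48 the log2 fold change was -0.08 (adjusted p = 0.859).

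**Figure D2:**
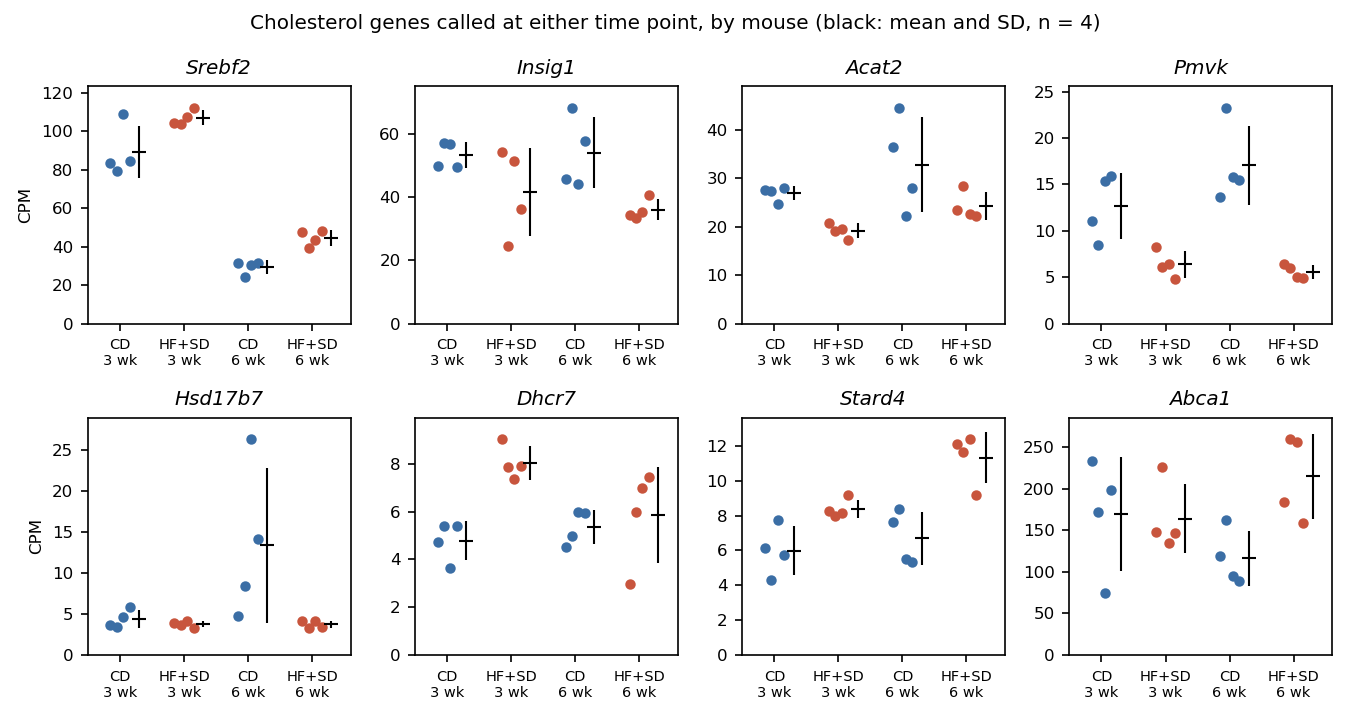
Level in CPM (linear axis from 0) of the 8 genes called at either time point, 1 coloured point per mouse, CD in blue and HF+SD in red, with the mean and SD of 4 mice in black. Srebf2 and Pmvk are separated by diet at 6 weeks, the CD values of Hsd17b7 at 6 weeks spread from 4.71 to 26.3 CPM, and 1 CD mouse at 3 weeks has 74.3 CPM of Abca1.

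Of the 8 mevalonate and isoprenoid enzymes, Pmvk fell at both time points and Acat2 fell at 3 weeks. Pmvk (ENSMUSG00000027952.17) encodes phosphomevalonate kinase, which adds the second phosphate to mevalonate. At 6 weeks it had 13.7, 23.3, 15.8 and 15.5 CPM in CD mice M22, M43, M45 and M48 and 6.38, 5.96, 5.00 and 4.89 in HF+SD mice M5, M18, M34 and M35. Every HF+SD mouse was below the lowest CD mouse, and the CD mouse with the least muscle, M22, lay near M45 and M48, which held the most. The means were 17.1 ± 4.26 and 5.56 ± 0.729 CPM (SD, n = 4 each), a 3.07-fold lower level on the HF+SD, with a log2 fold change of -1.62 (SE 0.20, edgeR adjusted p = 0.00101; exact permutation p = 0.0286). All 8 fits without 1 mouse called it (-1.71 to -1.46), as did the fit with the muscle score as a covariate (-1.49, adjusted p = 0.00455) and the fit without M45 and M48 (-1.72, adjusted p = 0.00632).

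At 3 weeks Pmvk had 11.1, 8.46, 15.4 and 15.9 CPM in CD mice M53, M54, M55 and M96 and 8.28, 6.12, 6.44 and 4.76 in HF+SD mice M7, M19y, M20y and M31. The diets did not overlap, although the lowest CD mouse (M54) and the highest HF+SD mouse (M7) nearly met. Its log2 fold change was -0.99 (SE 0.23, edgeR adjusted p = 0.0183; exact permutation p = 0.0286). It was called in 5 of the 8 fits without 1 mouse, with adjusted p-values up to 0.0555, and without M55 it was -0.89 (adjusted p = 0.0255). No stretch of 500 bases or more of its transcripts was at least 95% identical to another gene. White and brown adipocyte markers were also lower at both times, and their part in the change of Pmvk was not tested.

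Acat2 (ENSMUSG00000023832.15), the cytosolic thiolase that joins the first acetyl-CoA units, had 27.6, 27.5, 24.8 and 28.1 CPM in the CD mice at 3 weeks (M53, M54, M55 and M96) and 20.9, 19.1, 19.5 and 17.2 in the HF+SD mice (M7, M19y, M20y and M31). The diets were apart, with means of 27.0 ± 1.48 and 19.2 ± 1.52 CPM (SD, n = 4 each). The log2 fold change was -0.49 (SE 0.09, edgeR adjusted p = 0.00502; exact permutation p = 0.0286), and all 8 fits without 1 mouse called it, while the fit of all 16 libraries did not (-0.50, adjusted p = 0.0627). At 6 weeks it had 36.4, 44.6, 22.3 and 27.9 CPM in CD mice M22, M43, M45 and M48, and 23.5, 28.5, 22.7 and 22.2 in HF+SD mice M5, M18, M34 and M35. The 2 CD mice inside the HF+SD range were the muscle-rich M45 and M48. The log2 fold change at 6 weeks was -0.44 (SE 0.21, adjusted p = 0.166), and without M45 and M48 it was -0.73 (adjusted p = 0.0279). Its transcripts share 1477 bases at 97.7% identity with Acat3, so reads of the pair may have been split or dropped.

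Hmgcs1, the HMG-CoA synthase whose promoter carries the sterol response core, did not pass the test at either time. At 3 weeks it had 52.996, 50.2, 61.2 and 45.7 CPM in CD mice M53, M54, M55 and M96 and 46.1, 42.2, 46.5 and 40.5 in HF+SD mice M7, M19y, M20y and M31. M55 was highest and the diets overlapped at M96 (log2 fold change -0.26, SE 0.10, edgeR adjusted p = 0.103). At 6 weeks the values were 38.7, 60.3, 56.6 and 53.1 CPM in M22, M43, M45 and M48 and 54.1, 40.4, 45.05 and 39.7 in M5, M18, M34 and M35. The CD mouse with little muscle, M22, was the lowest of all 8, and the log2 fold change was -0.22 (SE 0.17, adjusted p = 0.376). The 5 remaining enzymes of this stretch, Mvk (mevalonate kinase), Mvd (which makes isopentenyl diphosphate), Idi1 (its isomerase), Fdps (farnesyl diphosphate synthase) and Ggps1 (geranylgeranyl diphosphate synthase), had log2 fold changes between -0.35 and 0.11 at 3 weeks and between -0.27 and 0.21 at 6 weeks, with none called. For Fdps, with 17 to 70 counts per library, the depth limits what can be seen, and Fdps, Idi1 and Ggps1 share near-identical stretches with other genes.

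Of the 12 enzymes from squalene to cholesterol, Dhcr7 rose at 3 weeks and Hsd17b7 fell at 6 weeks, and the others did not pass. Dhcr7 (ENSMUSG00000058454.16) encodes the reductase of the last step, from 7-dehydrocholesterol to cholesterol. At 3 weeks it had 4.73, 5.39, 3.65 and 5.40 CPM in CD mice M53, M54, M55 and M96 and 9.04, 7.86, 7.37 and 7.91 in HF+SD mice M7, M19y, M20y and M31. All HF+SD mice lay above all CD mice. The means were 4.79 ± 0.821 and 8.04 ± 0.707 CPM (SD, n = 4 each), a 1.68-fold higher level, with a log2 fold change of 0.75 (SE 0.15, edgeR adjusted p = 0.00975; exact permutation p = 0.0286), called in all 8 fits without 1 mouse. The 3-week call was lost with the muscle covariate (0.62, adjusted p = 0.0924) and in 1 fit of all 16 libraries (0.74, adjusted p = 0.0655). Muscle transcripts took at most 0.00803% of the counts at 3 weeks, and the covariate lowered the calls over all genes from 2560 to 1522. At 6 weeks Dhcr7 had 4.53, 4.98, 5.98 and 5.94 CPM in CD mice M22, M43, M45 and M48, and 2.98, 5.99, 7.01 and 7.47 in HF+SD mice M5, M18, M34 and M35. HF+SD mouse M5 was the lowest of all 8 and the other 3 HF+SD mice were the highest, and the log2 fold change was 0.13 (SE 0.28, adjusted p = 0.772). Scaled to thyrocyte genes, it was -0.51 at 6 weeks and 0.60 at 3 weeks (adjusted p = 0.0412).

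Hsd17b7 (ENSMUSG00000026675.13), the 3-ketosteroid reductase of C4 demethylation, had 4.71, 8.36, 26.3 and 14.1 CPM in CD mice M22, M43, M45 and M48 at 6 weeks and 4.09, 3.32, 4.16 and 3.36 in HF+SD mice M5, M18, M34 and M35. The HF+SD mice lay close together below the CD mice, whose levels followed the order of their muscle transcripts, and M22 was near the HF+SD range. Its log2 fold change was -1.84 (SE 0.46, edgeR adjusted p = 0.0219; exact permutation p = 0.0286). Adjusted for the muscle score it was -0.61 (adjusted p = 0.252), and without M45 and M48 it was -0.80 (adjusted p = 0.108). It was called in 3 of the 8 fits that left out 1 mouse. At 3 weeks, with few muscle transcripts in any library, CD mice had 3.71, 3.41, 4.68 and 5.89 CPM (M53, M54, M55 and M96) and HF+SD mice 3.87, 3.71, 4.11 and 3.30 (M7, M19y, M20y and M31). These ranges overlapped, and the log2 fold change was -0.24 (SE 0.19, adjusted p = 0.415).

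**Figure D3:**
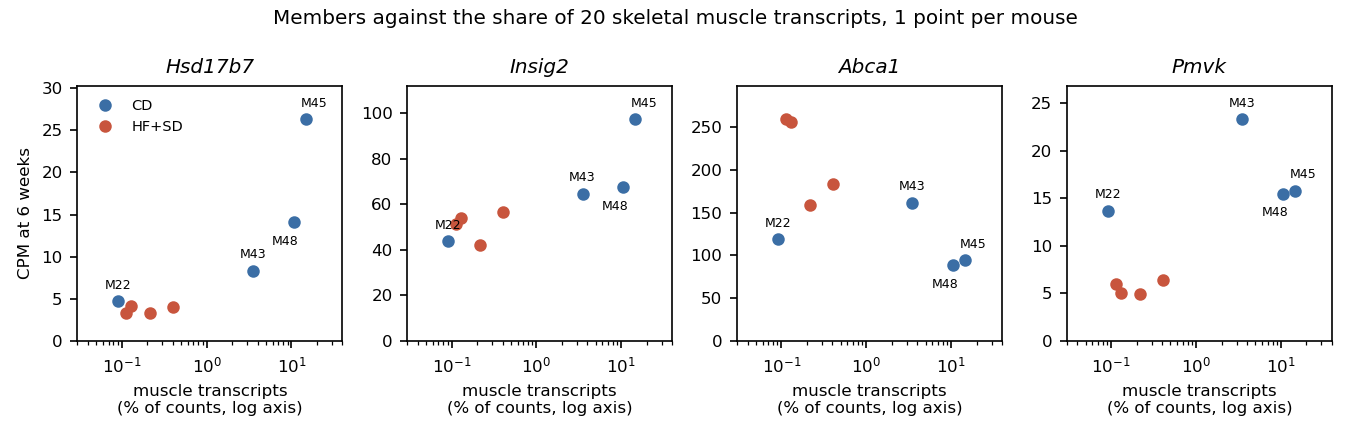
Level in CPM of Hsd17b7, Insig2, Abca1 and Pmvk at 6 weeks against the share of counts from 20 skeletal muscle transcripts (log axis), 1 point per mouse, CD in blue with names and HF+SD in red. Among the CD mice Hsd17b7 runs from 4.71 CPM at 0.0916% muscle to 26.3 at 14.7%. Pmvk has 13.7 and 15.8 CPM in these same mice, M22 and M45, and its highest value, 23.3, in M43 at 3.50%.

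Sqle, the squalene epoxidase at an early rate-setting step, had 9.95, 6.63, 12.5 and 11.1 CPM in CD mice M53, M54, M55 and M96 at 3 weeks and 7.88, 8.63, 8.45 and 8.98 in HF+SD mice M7, M19y, M20y and M31. The HF+SD mice fell inside the CD range (log2 fold change -0.24, SE 0.18, edgeR adjusted p = 0.378). At 6 weeks it had 9.53, 8.36, 6.11 and 6.06 CPM in M22, M43, M45 and M48 and 6.96, 5.74, 6.57 and 6.88 in M5, M18, M34 and M35. The lowest and the highest CD mouse again enclosed most HF+SD mice, and the log2 fold change was -0.20 (SE 0.19, adjusted p = 0.487). Lss, which closes the sterol rings to form lanosterol, and Nsdhl, a C4 decarboxylase, did not overlap between diets at 3 weeks, though Lss nearly touched, at 18.96 to 28.2 against 15.5 to 18.88 CPM for Lss and 13.1 to 15.6 against 10.6 to 12.8 for Nsdhl. Their log2 fold changes of -0.42 and -0.30 missed the edgeR threshold (adjusted p = 0.0561 and 0.0791) and passed with DESeq2 (adjusted p = 0.0233 and 0.0383).

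The remaining 7 enzymes of this stretch were not called at either time. They are Fdft1 (squalene synthase), Cyp51 (lanosterol demethylase), Tm7sf2 and Lbr (sterol C14 reductases), Msmo1 (C4 oxidase), Ebp (sterol isomerase) and Sc5d (C5 desaturase). Their log2 fold changes ran from -0.53 (Tm7sf2) to 0.14 (Lbr) at 3 weeks and from -0.27 (Cyp51) to 0.57 (Tm7sf2) at 6 weeks. The opposite values of Tm7sf2 rest on few mice: CD mice M55 and M96 had 21.4 and 22.5 CPM at 3 weeks, HF+SD mouse M18 had 26.0 at 6 weeks, and the other 13 mice lay between 8.66 and 12.1. Exons of Tm7sf2 overlap those of Vps51 over 532 bases on the same strand, and those of Fdft1 overlap Ctsb over 774 bases on the opposite strand, so their counts may hold reads of the neighbour.

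Stard4 (ENSMUSG00000024378.10), a soluble sterol carrier and SREBP2 target, was higher in every HF+SD mouse than in any CD mouse at both times, and passed the test at 6 weeks. At 6 weeks it had 7.63, 8.36, 5.49 and 5.32 CPM in CD mice M22, M43, M45 and M48 and 12.1, 11.6, 12.4 and 9.16 in HF+SD mice M5, M18, M34 and M35, with a log2 fold change of 0.76 (SE 0.20, edgeR adjusted p = 0.0264; exact permutation p = 0.0286). At 3 weeks it had 6.11, 4.32, 7.74 and 5.75 CPM in M53, M54, M55 and M96 and 8.26, 7.96, 8.14 and 9.15 in M7, M19y, M20y and M31. The highest CD mouse, M55, lay just below the lowest HF+SD mouse, M19y, and the log2 fold change of 0.49 (SE 0.17, adjusted p = 0.0783) missed the threshold, while without M55 it was 0.63 (adjusted p = 0.0133). The 6-week call was kept in 3 of the 8 fits without 1 mouse and lost with the muscle covariate (0.55, adjusted p = 0.184), without M45 and M48 (0.51, adjusted p = 0.147) and when scaled to thyrocyte genes (0.21, adjusted p = 0.423).

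On the LXR side, Abca1 rose at 6 weeks. At 3 weeks no receptor or target among the 31 genes was called by edgeR or DESeq2, with 0 of 5 at an unadjusted p under 0.05. Further LXR targets outside the 31, some of them called at 3 weeks, are given below. Abca1 (ENSMUSG00000015243.5) exports cholesterol to apolipoprotein acceptors. At 6 weeks it had 119, 162, 94.7 and 88.4 CPM in CD mice M22, M43, M45 and M48 and 184, 259, 256 and 159 in HF+SD mice M5, M18, M34 and M35. Only the highest CD mouse, M43, and the lowest HF+SD mouse, M35, crossed. Its log2 fold change was 0.89 (SE 0.24, edgeR adjusted p = 0.0290; exact permutation p = 0.0571). It was called in 4 of the 8 fits without 1 mouse and lost without M45 and M48 (0.62, adjusted p = 0.165), with the muscle covariate (0.68, adjusted p = 0.204) and when scaled to thyrocyte genes (0.32, adjusted p = 0.320). Macrophage and endothelial markers were higher in the same mice, and their part in it was not tested.

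At 3 weeks Abca1 had 233, 171, 74.3 and 198 CPM in CD mice M53, M54, M55 and M96 and 148, 226, 135 and 146 in HF+SD mice M7, M19y, M20y and M31. M55 lay far below all other mice, and the log2 fold change was -0.05 (SE 0.30, edgeR adjusted p = 0.935) with it and -0.29 (adjusted p = 0.275) without it. Mylip had 122, 99.7, 39.9 and 111 CPM in the same CD mice and 66.6, 82.3, 72.5 and 79.1 in the HF+SD mice. The 3 other CD mice were above every HF+SD mouse and M55 below every one. Its log2 fold change was -0.31 (SE 0.28, adjusted p = 0.483) with M55 and -0.56 (adjusted p = 0.00330) without it. At 6 weeks Mylip had 81.3, 77.2, 42.8 and 42.8 CPM in M22, M43, M45 and M48 and 54.2, 65.5, 63.8 and 50.0 in M5, M18, M34 and M35. Both muscle-rich CD mice were below all others and the other CD mice above (log2 fold change -0.06, SE 0.24, adjusted p = 0.873).

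Abcg1, which exports cholesterol to lipoprotein particles, had 13.9, 9.82, 11.0 and 15.3 CPM in CD mice M53, M54, M55 and M96 at 3 weeks and 11.6, 12.1, 11.3 and 16.2 in HF+SD mice M7, M19y, M20y and M31. The diets covered the same range (log2 fold change 0.03, SE 0.17, edgeR adjusted p = 0.909). At 6 weeks it had 11.8, 6.49, 7.15 and 7.93 CPM in M22, M43, M45 and M48 and 11.4, 11.9, 9.36 and 15.04 in M5, M18, M34 and M35. M22 was the CD mouse within the HF+SD range, and the log2 fold change was 0.52 (SE 0.23, adjusted p = 0.136). The receptors themselves were not called at 6 weeks either, by edgeR or DESeq2, with 0 of 2 at an unadjusted p under 0.05: Nr1h2 (LXR beta) had log2 fold changes of -0.14 and -0.07 and Nr1h3 (LXR alpha) of -0.06 and 0.26 at 3 and 6 weeks. Soat1, which esterifies cholesterol for storage, had -0.17 (SE 0.12, adjusted p = 0.366) and 0.37 (SE 0.21, adjusted p = 0.239).

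Set side by side, the 3 LXR target genes had a median log2 fold change of 0.52 at 6 weeks and -0.05 at 3 weeks, and the 20 synthesis enzymes -0.07 and -0.18. The 3 targets ran from -0.06 (Mylip) to 0.89 (Abca1) at 6 weeks, and their median was the value of Abcg1, which was not called. At 3 weeks they ran from -0.31 to 0.03. The enzymes ran from -1.84 to 0.57 at 6 weeks and from -0.99 to 0.75 at 3 weeks. As a description per mouse, the mean log2 CPM of the LXR targets minus that of the enzymes was 1.95 ± 0.191 at 6 weeks in HF+SD mice and 1.28 ± 0.338 in CD mice (SD, n = 4 each). CD mouse M22, at 1.76, lay above HF+SD mouse M5, at 1.67, and the other 3 CD mice, at 1.01 to 1.24, below all HF+SD mice. Those 3, M43, M45 and M48, had 3.50%, 14.7% and 10.6% of counts in muscle transcripts, against 0.0916% in M22. With the muscle covariate the 6-week median log2 fold changes were 0.24 for the LXR targets and -0.02 for the enzymes. Without M45 and M48 they were 0.40 and -0.12. The part of muscle in the per-mouse differences was not tested. At 3 weeks the same difference was 2.11 ± 0.231 in HF+SD mice and 1.97 ± 0.676 in CD mice (SD, n = 4 each). There M55 had the highest mean of the synthesis enzymes among all 8 mice, 4.01, and the lowest of the LXR targets, 5.00.

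**Figure D4:**
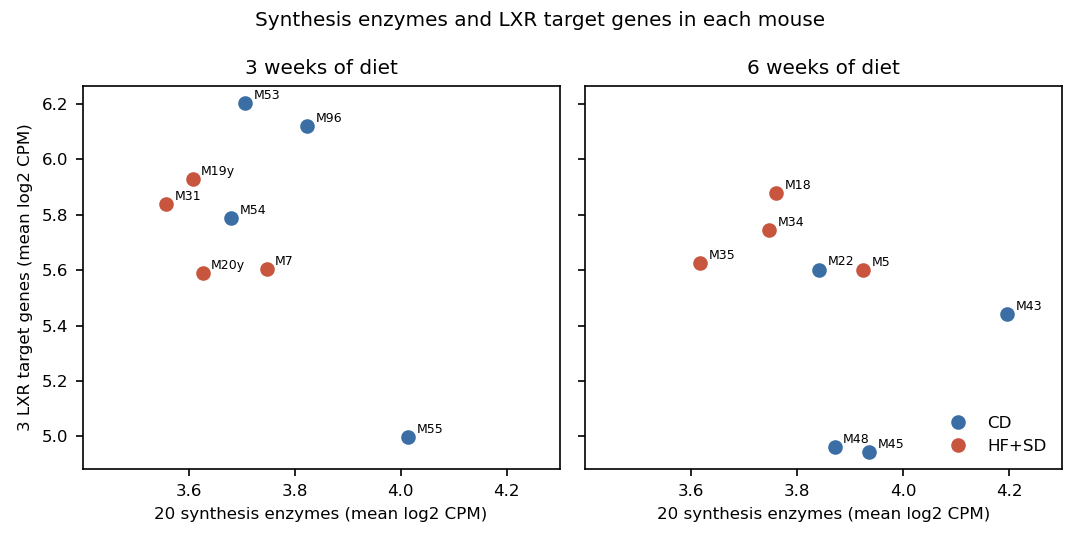
Mean log2 CPM of the 20 synthesis enzymes (horizontal) and of the 3 LXR target genes (vertical), 1 point per mouse, at 3 weeks on the left and 6 weeks on the right. M55 sits apart at the lower right at 3 weeks (4.01 and 5.00), and at 6 weeks M45 and M48 are the 2 lowest on the vertical axis.

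Whether a diet effect differed between 3 and 6 weeks was tested over all 16 libraries. None of the 31 genes passed with edgeR, against 0.0792% of the 18929 genes tested. At an unadjusted p under 0.05 there were 4 of the 31, against 4217 of the 18929. With DESeq2 1 passed (Hsd17b7, adjusted p = 0.0294), against 8.32% of the 21584 genes it fitted. Hsd17b7 had the lowest p, with a difference (6 weeks minus 3 weeks) of -1.67 on the log2 scale (SE 0.53, adjusted p = 0.0903, edgeR). For Abca1 the difference was 0.89 (SE 0.41, adjusted p = 0.211) and for Dhcr7 -0.67 (SE 0.33, adjusted p = 0.241), so the call of each at 1 time point and not at the other was not shown to be a difference between times. Without M55, 8 of 31 genes were called at 3 weeks (19.4% of all genes), namely Srebf2, Scap, Dhcr7 and Stard4 higher and Acat2, Pmvk, Nsdhl and Mylip lower.

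Among genes around the pathway, Nceh1, Gramd1b, Npc2, Pltp and Scd1 were called at both times, as were 1342 of all 17024 genes tested at both. Of 10 tested genes of sterol transport, ester hydrolysis and esterification, 4 rose at 6 weeks, and 3 rose and 1 fell at 3 weeks. Over all genes tested, 12.0% were called higher and 9.55% lower at 6 weeks, and 9.07% higher and 5.78% lower at 3 weeks. Nceh1, a neutral cholesterol ester hydrolase, had 44.6 to 95.1 CPM in CD mice against 195 to 292 in HF+SD mice at 6 weeks, and 71.2 to 113 against 189 to 211 at 3 weeks. These ranges were far apart at both times, with log2 fold changes of 1.85 (SE 0.25, edgeR adjusted p = 0.00138) and 1.09 (SE 0.13, adjusted p = 0.000778), called without any 1 mouse, with the muscle covariate and when scaled to thyrocyte genes. Gramd1b, which carries cholesterol from the plasma membrane to the endoplasmic reticulum, rose by 0.98 and 1.30 on the log2 scale at 6 and 3 weeks (adjusted p = 0.00775 and 0.00356), and Npc2, the lysosomal cholesterol carrier, by 1.39 and 0.79 (adjusted p = 0.0126 and 0.0111). The fourth gene at 6 weeks was Lipa, the lysosomal acid lipase (0.92, SE 0.19, adjusted p = 0.0107), and the gene that fell at 3 weeks was Gramd1a (-0.26, SE 0.07, adjusted p = 0.0378), named after its values were seen. Scaled to thyrocyte genes these genes kept their sign, and the call was lost for Gramd1b (adjusted p = 0.0811) and Lipa (0.176) at 6 weeks and for Npc2 (0.117) and Gramd1a (0.0853) at 3 weeks. With the muscle covariate it was lost for Npc2 (0.0746) and Lipa (0.0747) at 6 weeks and for Gramd1a (0.161) at 3 weeks. Of the 8 fits without 1 mouse, 3 called Gramd1a at 3 weeks, and all 8 kept the calls of Gramd1b, Npc2 and Lipa.

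Of 6 tested further LXR targets, 2 rose and 1 fell at each time. The shares over all genes tested were 12.0% higher and 9.55% lower at 6 weeks, and 9.07% higher and 5.78% lower at 3 weeks. Pltp, the phospholipid transfer protein, rose at both (log2 fold change 0.93, SE 0.20, adjusted p = 0.0126 at 6 weeks and 0.52, SE 0.10, adjusted p = 0.00981 at 3 weeks, edgeR), Arl4c at 6 weeks (0.79, adjusted p = 0.0243) and Smpdl3a at 3 weeks (0.33, adjusted p = 0.0133). Scd1, a fatty acid desaturase abundant in fat, fell at both times. Its log2 fold change was -3.07 at 6 weeks (adjusted p = 0.000592) and -2.51 at 3 weeks (adjusted p = 0.000672). White adipocyte markers had log2 fold changes from -1.55 to -0.81 at 6 weeks and from -1.11 to -0.69 at 3 weeks. Brown adipocyte markers ran from -3.67 to 0.12 at 6 weeks and from -5.36 to 0.78 at 3 weeks. The part of fat tissue in the change of Scd1 was not tested. Of 4 further sterol-regulated genes, Rdh11 rose at 6 weeks (1.01, adjusted p = 0.0178) and Tmem97 at 3 weeks (0.40, adjusted p = 0.0434). When scaled to thyrocyte genes Rdh11, Pltp and Arl4c lost the 6-week call (adjusted p = 0.130, 0.333 and 0.223) and Pltp, Smpdl3a and Tmem97 the 3-week call (0.228, 0.473 and 0.254), with no change of sign among these. With the muscle covariate Rdh11 (0.127) and Arl4c (0.165) at 6 weeks and Smpdl3a (0.0913) and Tmem97 (0.0976) at 3 weeks lost it. Of the 8 fits without 1 mouse, 6 called Rdh11 and 3 called Arl4c at 6 weeks, and 2 called Tmem97 at 3 weeks. Scd1 was called in all of these. Of 4 oxysterol enzymes Cyp27a1 fell at 6 weeks (-1.61, SE 0.36, adjusted p = 0.0149), and with the muscle covariate it was -0.79 (adjusted p = 0.121), while at 3 weeks none passed with edgeR or DESeq2 (0 at an unadjusted p under 0.05). None of 8 genes of SREBP processing and sterol-regulated degradation passed with edgeR at either time. At an unadjusted p under 0.05 there were 2 at 6 weeks and 0 at 3 weeks, and DESeq2 called 1 and 0. None of 7 genes of the non-sterol branch passed with edgeR, with 4 and 1 at an unadjusted p under 0.05 and 0 and 0 with DESeq2. Over all genes tested, 6612 of 18249 had an unadjusted p under 0.05 at 6 weeks and 5337 of 17238 at 3 weeks (edgeR).

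**Figure D5:**
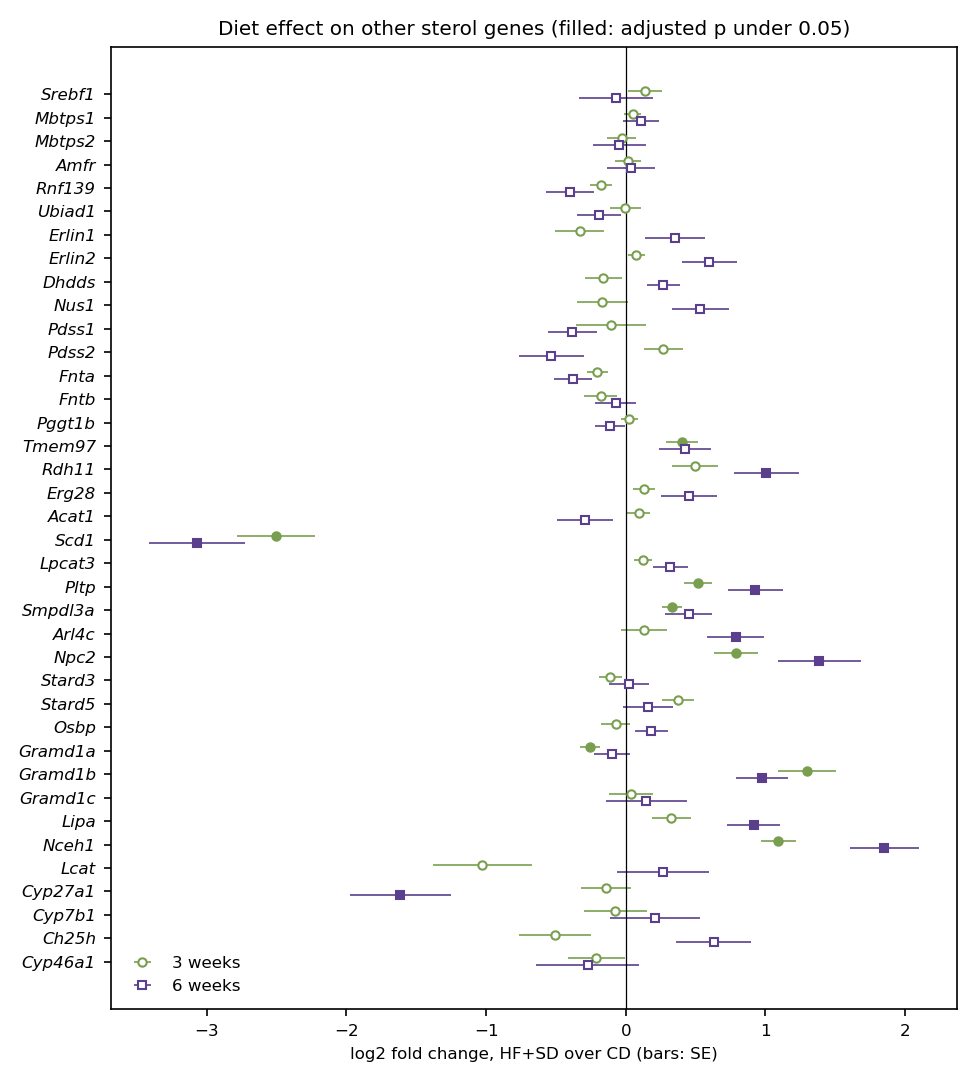
Log2 fold change of the HF+SD over the CD for other sterol genes at 3 weeks (green circles) and 6 weeks (purple squares), bars showing the standard error and filled symbols adjusted p under 0.05. Nceh1, Npc2, Gramd1b and Pltp are filled and to the right at both times, and Scd1 is far to the left (-2.51 and -3.07).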

How the data were processed

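Poly(A) RNA of 16 whole mouse thyroids, 4 per diet and time point, was sequenced as 150 bp read pairs. The authors deposited raw counts of reads per gene, with no normalization, which were the input of all tests; a second deposited table, of counts divided by size factors, was not used. The submitters' processing notes name the build mm39, Trim Galore 0.6.7, STAR, DESeq2 1.36.0 and R 4.1.0. Neither the annotation nor the strand setting of the counting is given in the sources used here. Identifiers were matched without version to GENCODE M21, which gave a symbol to 20841 of 21640 genes. Library totals were 30025256 to 48508653 counts, and counts between mice of a group differed by far more than counting error (chi-square of 15.1 to 871 per gene). Mice are the replicates.

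The HF+SD was compared with the CD separately at each time by edgeR 4.0.16, R 4.3.3 (TMM, filterByExpr, glmQLFit, glmQLFTest, Benjamini-Hochberg over all genes tested, called at adjusted p under 0.05). The standard error is the absolute log2 fold change over the square root of F. CPM and log2 CPM (prior count 2) were computed here. Single genes were also compared by an exact permutation test on log2 CPM. The scripts were tested on simulated counts with known changes. The 31 genes and all lists were chosen with earlier results of these data known. Values of every mouse are given for each gene called at either time and for Srebf2, Insig1, Hmgcs1, Sqle, Dhcr7, Abca1, Abcg1 and Mylip; other lists are counted, with up to 3 examples of lowest adjusted p. The study states n = 3 for the CD at 6 weeks; here all 4 deposited mice enter, with fits that omit each. Alternatives were DESeq2 1.42.0, RLE size factors, scaling to 9 thyrocyte genes, no low-count filter, 1 fit of all 16 libraries, a muscle score as covariate, and the study's fold minimum. A fit without M45 and M48 was added after seeing the data. Near-identical transcripts (95% over 500 bases) and overlapping exons were looked up in GENCODE M21.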

Additional observations from a re-analysis of the deposited data

Results flagged for a closer look

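With 31 genes in 4 groups, 124 combinations were examined for a mouse lying beyond the other 3 of its group by Dixon's 95% limit, of which chance gives about 1 in 20, and 8 were found. CD mouse M55 at 3 weeks gave 3 of them, with 55.8 CPM of Scap (other CD mice 46.8 to 47.9), 69.4 of Fdft1 (38.3 to 43.4) and 25.8 of Msmo1 (13.2 to 14.7). The others were each a single gene of a mouse: HF+SD mouse M5 at 6 weeks had 16.9 CPM of Mvd (others 5.64 to 7.17), HF+SD mouse M18 at 6 weeks 26.0 of Tm7sf2 (9.89 to 11.2), CD mouse M43 at 6 weeks 19.7 of Cyp51 (14.5 to 15.04), HF+SD mouse M19y at 3 weeks 226 of Abca1 (135 to 148) and HF+SD mouse M31 at 3 weeks 16.2 of Abcg1 (11.3 to 12.1). None of these 8 values belongs to a gene called at that time point.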

How the results depend on the processing

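Of the 31 genes 6 were called at 6 weeks, and the count was also 6 with DESeq2, RLE size factors or no low-count filter, 10 in 1 fit of all 16 libraries (32.7% of all genes), 2 with the muscle covariate (Pmvk and Lss; 11.0%), 15 when scaled to thyrocyte genes, all lower (49.02%), 2 with the fold minimum, and 2 to 9 with 1 mouse left out (9 without M22, 2 without M48, M18 or M34, 3 without M5). Without M45 and M48, chosen after seeing the data, it was 3 (Srebf2, Acat2 and Pmvk). Scaled to thyrocyte genes, Srebf2 (0.02), Stard4 (0.21) and Abca1 (0.32) lost the call. At 3 weeks 3 were called, and 6 with DESeq2 (16.9% of all genes), 1 in the fit of all libraries (Pmvk; 7.50%), 2 with the muscle covariate (8.83%), 3 when scaled to thyrocyte genes, with RLE or with no filter, 0 with the fold minimum and 2 to 8 with 1 mouse left out (8 without M55). The median of the synthesis enzymes at 6 weeks (-0.07) was -0.66 when scaled to thyrocyte genes and -0.26 to 0.0031 with 1 mouse left out, and at 3 weeks (-0.18) -0.38 and -0.27 to -0.13. That of the LXR targets at 6 weeks (0.52) was 0.24 with the muscle covariate, -0.026 when scaled to thyrocyte genes and 0.38 to 0.74 with 1 mouse left out, and at 3 weeks (-0.05) -0.29 to 0.08. The difference between times called 1 gene, Hsd17b7, with DESeq2 and 0 to 1 with 1 mouse left out (1 without M22 or M43). Over all 31 genes, 8 signs turned at 6 weeks with the muscle covariate and 13 with thyrocyte scaling. At 3 weeks these counts were 5 and 3. The turns that follow are those of genes with values given for every mouse. Hmgcs1 turned at 6 weeks with the muscle covariate (0.070). Dhcr7 turned at 6 weeks when scaled to thyrocyte genes (-0.51) and with 1 mouse left out (-0.0022 to 0.35). With 1 mouse left out, Mylip turned at 6 weeks (-0.21 to 0.11) and Abca1 at 3 weeks (-0.29 to 0.14). Abcg1 turned at 6 weeks when scaled to thyrocyte genes (-0.026). At 3 weeks Abcg1 turned with the muscle covariate (-0.25), thyrocyte scaling (-0.14) and 1 mouse left out (-0.10 to 0.15). Where the construction of an alternative does not show it, the cause was not tested. No paired analysis was possible because the diet groups share no replicate numbers in the labels.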
